A study of Mus musculus with 36 samples.

Results

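Collagen chain genes are the 42 protein-coding genes whose symbol is Col, a number, the letter a and a number, of 22761 genes listed with values in this series. They were sorted into 11 fibrillar chains, 9 chains of the basement membrane zone and 22 others, of which 8 are fibril-associated chains, 6 are chains of beaded filaments, 4 are transmembrane, 2 form short-chain networks and 2 belong to none of these. A further 2 collagen genes of the same naming, Col10a1 and Col19a1, were not analysed here. RNA sequencing was made on 36 samples in 9 groups of 4. Ex-fetu cells of CD1 mice were taken from embryonic kidneys at E11.5 and at E12.5 as nephron progenitors (NP), stromal progenitors (SP) and ureteric bud (UB), and each of these samples pooled the kidneys of all embryos of a mouse. The other 3 groups were made from mouse embryonic stem cells (mESC) in embryoid bodies, each sample being a batch: nephron progenitor-like iNP and stromal progenitor-like iSP from the E14 line, and engineered ureteric bud (eUB) from a reporter line in which mCherry is driven from Sox9 according to the labels and to the sorting and sequencing methods, whereas the methods on making an mCherry line name Sox8. NP and iNP cells were sorted as ITGA8 high and PDGFRA low, SP and iSP cells as ITGA8 low and PDGFRA high, both after removal of cells positive for CD31 or for EpCAM/RET. UB cells were sorted as positive for RET and EpCAM and eUB cells for EpCAM and mCherry. For UB the stage in the title and the stage in the cell source are swapped between E11.5 and E12.5. The titles were used here, and if the cell source is right the UB groups of the 2 stages change places and each stage difference in UB changes sign.

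Collagens are trimers of chains that wind around each other along a Gly-X-Y repeat, in which glycine alternates with a pair of other residues. Fibrillar chains (types I, II, III, V, XI, XXIV and XXVII) form the cross-striated fibrils of loose mesenchyme, cartilage and tendon. Type IV chains form the sheet-like network under epithelia, where they are joined by types XV and XVIII, which carry endostatin-like ends, and by type VII, the anchoring fibril. Fibril-associated chains with interrupted helices (FACITs: types IX, XII, XIV, XVI, XX and XXII) sit on the surface of fibrils or at tissue borders, type VI forms beaded filaments around cells, type VIII forms short-chain networks, and types XIII, XVII, XXIII and XXV span the cell membrane. In the developing kidney the ureteric bud is an epithelium resting on a basement membrane, whereas stromal progenitors are mesenchyme and lie around the nephron progenitors that cap the bud tips.

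The fibrillar chains stand apart in the coding sequence, in which each glycine codon is GGN. Of the longest unbroken run of GGN triplets in each principal transcript, the 11 fibrillar chains had 216 to 344 triplets (median 338), the 9 basement membrane chains 30 to 75 (median 42) and the 22 others 23 to 113 (median 45). The windows below, from GENCODE vM21 transcripts, show 24 codons of each of 2 fibrillar chains that had the highest levels per kilobase in E11.5 SP, 34 codons of the type IV chain that led in UB and 24 codons of the chain with the shortest run, with glycine codons in capitals.
Col1a1, from codon 168: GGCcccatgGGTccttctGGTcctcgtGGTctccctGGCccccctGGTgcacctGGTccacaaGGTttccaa
Col3a1, from codon 164: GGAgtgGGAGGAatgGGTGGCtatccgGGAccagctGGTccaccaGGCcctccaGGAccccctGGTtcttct
Col4a1, from codon 151: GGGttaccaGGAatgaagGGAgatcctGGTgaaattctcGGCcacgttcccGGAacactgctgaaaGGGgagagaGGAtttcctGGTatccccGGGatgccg
Col26a1, from codon 199: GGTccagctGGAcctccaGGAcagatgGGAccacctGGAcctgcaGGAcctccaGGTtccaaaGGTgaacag

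In Col1a1 a glycine codon opened every triplet of codons. In Col3a1 some of the other 2 positions were glycine as well. In Col4a1 the spacing was broken in this window before it resumed.

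Col4a1 and Col4a2 lie head to head on chromosome 8 of GRCm38, Col4a1 at chr8:11198423-11312826 on the minus strand and Col4a2 at chr8:11312805-11449287 on the plus strand, so that the first 22 bases of their first exons, within the 5′ UTR, are the same DNA read in opposite directions. On the Col4a1 strand these bases in RefSeq (GRCm38.p6) read as follows, shown since both chains are compared throughout.
Col4a1 and Col4a2, shared first bases: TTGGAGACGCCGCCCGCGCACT

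The use of strand in counting is not given in the sources used here, and reads over these 22 bases, over the 234 exon bases that Col9a3 shares with Tcfl5 and over the 563 that Col4a3 shares with C430014B12Rik cannot be told apart without it. Col20a1 shares 79 exon bases with BX649560.1 on the same strand, which strand cannot separate.

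The libraries held between 13.0 and 52.5 megareads counted on genes, the shallowest being eUB replicate 1, and 3 reads, taken as the limit of detection, corresponded to 0.0605 to 0.223 in normalised CPM (reads relative to library size, scaled by the authors' normalisation factors). Levels below are in normalised CPM, ± is the SD over 4 libraries, and differences are on the scale of log2(normalised CPM + 1), which understates the change of low genes. A gene was called at an adjusted p-value under 0.05, over all genes tested. Genes entered a test if 4 or more of its libraries reached a level of 1. A gene that reached it in the libraries of 1 group alone passed through that group and was bound to differ. This held for 2 of the called members in each of the ES-derived against E11.5 comparisons and in NP against SP at E11.5. It held for 6 in UB against SP and 3 in UB against NP at E11.5, 1 between the SP stages and none between the UB or NP stages. Among the ES-derived groups it held for 2 in iNP against iSP, 3 in eUB against iSP and 5 in eUB against iNP. Replicates are pools from separate mice or batches. Since these are bulk values, fewer cells of a type and less RNA per cell cannot be told apart.

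Each sort was set against its markers. The lists hold genes of the sort itself: Epcam and Ret for UB, Pdgfra for stroma and Itga8 for nephron progenitors. The sums are therefore in part fixed by the sort. The summed level of 8 UB markers was 4030.0 to 4270.5 in E11.5 UB and 3187 to 3524 in eUB, against 51.6 to 74.2 in E11.5 NP. Of 6 stromal markers, Foxd1 was low in iSP at 11.4, 19.2, 17.3 and 12.9, against 265, 367, 447 and 563 in E11.5 SP, although the sum of all 6 was 2756 to 2988 in iSP and 2112 to 2768 in E11.5 SP. Of 7 nephron progenitor markers, Six2 was 116, 141, 147 and 152 in iNP against 579, 557, 641 and 584 in E11.5 NP and Cited1 3.27, 4.26, 2.61 and 1.66 against 18.4, 30.8, 33.2 and 42.6. E12.5 UB replicate 1 stood apart from the other 3 of its group: its stromal marker sum was 523 against 185 to 198, its nephron progenitor sum 412 against 52.3 to 82.4, its endothelial sum 114 against 4.12 to 7.73 and its UB sum 2113 against 3314 to 3598. The main counts and values that draw on E12.5 UB are given with and without this library. E12.5 NP replicate 1 stood apart in its group as well, with a nephron progenitor sum of 1236 against 1905 to 2140.2, a stromal sum of 578 against 929 to 1013 and a UB sum of 109 against 40.05 to 49.5. E12.5 SP replicate 1 had the lowest stromal sum of its group. Macrophage markers summed to 62.1 to 107 in E11.5 UB and 46.5 to 84.1 in E12.5 UB, and to at most 20.2 in every library of the other groups.

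By their mean over a group, 30 of the 42 genes were highest in an SP group (E11.5, E12.5 or iSP), 7 in a UB group and 5 in an NP group. The mean reached 10 in at least 1 group for 32 genes, which are described with their values. The remaining 10 are given at the end of the cell type and stage comparisons. Levels of different genes are compared only after division by the length of the principal transcript. Per kilobase, Col1a1 led in E11.5 SP with a mean of 411, followed by Col3a1 with 321 and Col1a2 with 201. In E11.5 UB the order was Col18a1 with 154, Col4a1 with 127 and Col26a1 with 58.7, and in E11.5 NP it was Col26a1 with 85.5, Col2a1 with 67.2 and Col4a1 with 52.4. The fibril chains of type I and III headed the list in none of the UB or NP groups, and in iSP they were ordered Col3a1 (396), Col1a2 (357), Col26a1 (214) and Col1a1 (121).

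**Figure D1:**
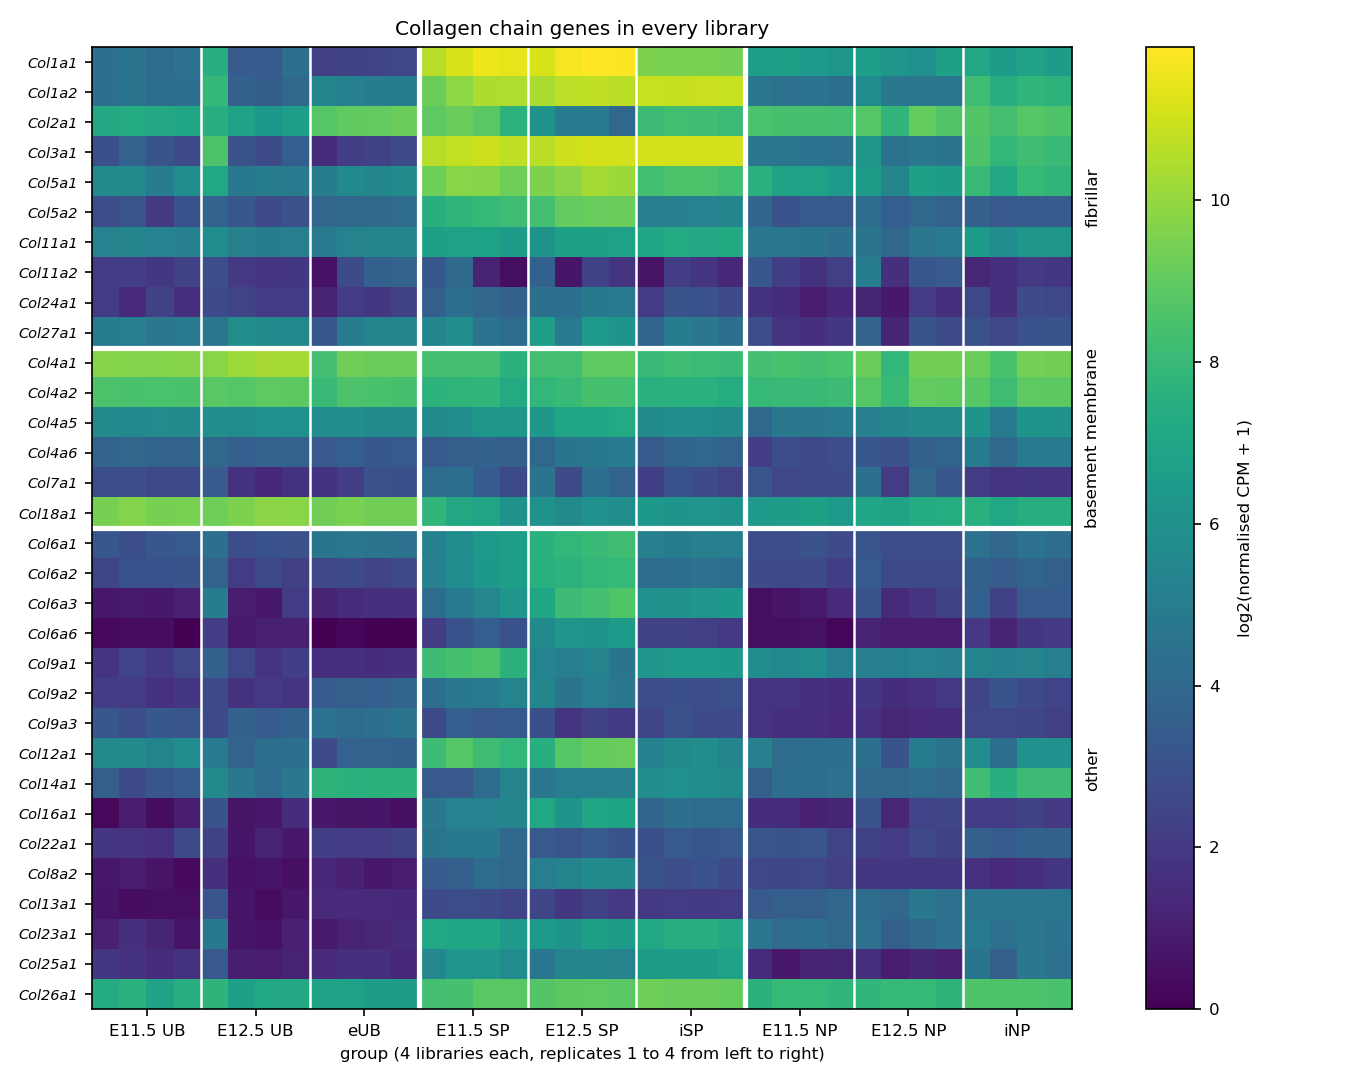
Heat map of the 32 collagen chains with a group mean of at least 10, with 1 row per gene in classes and 1 column per library, coloured by log2(normalised CPM + 1). The fibrillar rows Col1a1, Col1a2, Col3a1, Col5a1 and Col5a2 are high in the 12 SP and iSP libraries and Col18a1 in the 12 UB and eUB libraries. Col4a1 is highest by group mean in E11.5 and E12.5 UB, while its eUB libraries overlap those of NP. E12.5 UB replicate 1 is higher than its group in the type I and III rows.

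As a whole, collagen chains took 0.703 to 1.01% of the reads on genes in E11.5 SP, 0.250 to 0.273% in E11.5 UB and 0.167 to 0.181% in E11.5 NP, with no overlap between these groups. In the ES-derived groups the share was 0.728 to 0.778% in iSP, 0.234 to 0.292% in eUB and 0.274 to 0.411% in iNP. The make-up differed more than the total. Fibrillar chains took 0.500 to 0.778% in E11.5 SP and 0.0294 to 0.0356% in E11.5 UB, whereas basement membrane chains took 0.0485 to 0.0816% and 0.194 to 0.209%. In NP both were low, at 0.0550 to 0.0750% fibrillar and 0.0685 to 0.0770% basement membrane at E11.5. iNP had 0.109 to 0.170% and 0.0887 to 0.150%, every iNP library being above every E11.5 NP library in both. Between eUB and E11.5 UB the order was opposite in the 2 classes, with 0.0593 to 0.0814% fibrillar and 0.133 to 0.183% basement membrane in eUB. No test was made on these sums.

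**Figure D2:**
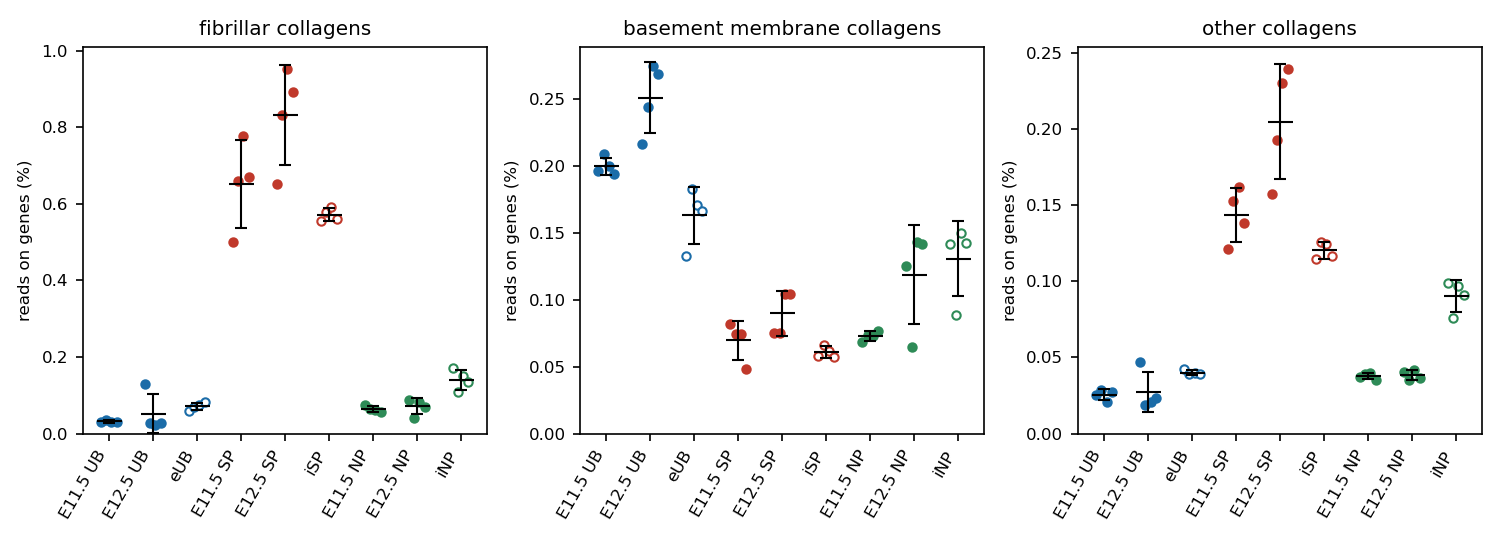
Percent of reads on genes taken by fibrillar, basement membrane and other collagen chains in each library, in 3 panels by group. Filled points are ex-fetu and open points ES-derived libraries, and bars give the mean and SD of 4. Fibrillar chains take 0.652 to 0.952% in E12.5 SP and at most 0.130% in every UB and eUB library.

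The first question is how the 3 cell types of the E11.5 kidney differ. The 3 comparisons share their samples pairwise, so that their calls are not independent. Against E11.5 SP, 36 members were tested in NP and 28 were called, 26 of them lower in NP, where 43.1% of all genes tested were called and 22.2% were called lower. In UB, 29 of 36 were called, 26 of them lower than in SP, where 53.6% of all genes were called and 26.7% were lower. Fibrillar chains were lower in both: 9 of 11 in NP (median log2 difference -2.62) and 9 of 11 in UB (median -2.66), against medians over all genes of 0.026 and 0.0062. Col5a3, among the 9 in UB, had passed the filter through SP alone. So had Col16a1, Col8a1, Col8a2 and Col13a1 among the 26 lower in UB, and Col8a1 among the 26 lower in NP. The beaded filament chains Col6a1, Col6a2 and Col6a3 were lower in NP and in UB, and a further one, Col6a6, was called lower but had passed the filter through SP alone. Basement membrane chains were divided, with 1 of 7 higher and 2 lower in NP, and 3 of 7 higher and 2 lower in UB. Between UB and NP, 25 of 32 members were called, 11 higher and 14 lower in UB, where 60.2% of all genes were called, and 5 of 7 basement membrane chains were higher in UB with none lower. Col16a1, Col8a2 and Col13a1, among the 14, had passed the filter through NP alone. At E12.5, 15 of 34 members were called between UB and NP, where 32.7% of all genes were, and 19 of 33 without E12.5 UB replicate 1, where 34.0% were.

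Col3a1 (chr1:45311538-45349706), the single chain of type III fibrils, had 1576, 1797, 2041 and 1735 normalised CPM in E11.5 SP, 24.7, 24.6, 22.3 and 20.8 in NP and 6.59, 12.5, 7.40 and 5.65 in UB. The groups were far apart, with SP 77.4-fold above NP and 222-fold above UB on the means, a log2 difference of -6.21 (SE 0.10, adjusted p = 7.55e-10) for NP and -7.68 (SE 0.19, adjusted p = 1.80e-09) for UB. The 2 chains of type I, the main collagen of loose connective tissue, followed the same order of SP over the rest. Col1a1 (chr11:94936224-94953042) was 1577, 2308, 3060.0 and 2813 in SP, 97.2, 103, 86.2 and 78.02 in NP and 19.1, 23.1, 17.1 and 20.6 in UB. Col1a2 (chr6:4504814-4541544) was 591, 930.1, 1365 and 1424 in SP, 24.7, 21.3, 22.004 and 18.4 in NP and 19.5, 23.2, 18.7 and 18.99 in UB. In NP and UB the 2 genes parted: Col1a1 was lower in UB than in NP by a log2 difference of -2.14 (SE 0.11, adjusted p = 4.28e-09), while Col1a2 differed by -0.10 (SE 0.11, adjusted p = 0.456) and its groups overlapped. The type V chains, which nucleate type I fibrils, were also highest in SP, Col5a1 with 620.0, 876, 856 and 612 and Col5a2 with 179, 217, 251 and 295. Their levels were 185, 113, 109.9 and 83.7 and 13.7, 7.05, 9.77 and 9.30 in NP, and 49.5, 47.8, 31.9 and 52.8 and 6.36, 7.84, 3.06 and 7.04 in UB. Both chains were called lower in NP and in UB than in SP, between -2.62 and -5.10 on the log2 scale.

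Col2a1 (chr15:97975602-98004695), the fibril chain of cartilage, did not follow type I. It was 485, 582, 456 and 207 in E11.5 SP, 362, 342, 348 and 320.4 in NP and 143, 158, 142 and 129 in UB, so that SP and NP overlapped (log2 difference -0.24, SE 0.27, adjusted p = 0.511) and UB was lowest (-1.26 (SE 0.069, adjusted p = 1.10e-08) against NP). SP replicate 4 was the low library, and without it NP was lower than SP, with a log2 difference of -0.56 (adjusted p = 0.00147). At E12.5 the order turned: Col2a1 was higher in NP than in SP by 3.59 (SE 0.40, adjusted p = 1.02e-04) and in UB by 1.85 (SE 0.40, adjusted p = 0.00422), or 1.63 (adjusted p = 0.00955) without E12.5 UB replicate 1, in comparisons where 34.8% and 46.4% of all genes were called. Col11a1, a partner of Col2a1 in cartilage fibrils, was 92.1 to 118 in SP, 35.1 to 41.1 in UB and 20.1 to 26.3 in NP, and each pair of groups was called. Col11a2 ranged from 0.338 to 16.05 in SP alone, overlapped between all 3 groups and was not called in any of the 3 comparisons. Col24a1 was 11.1 to 19.04 in SP, 1.69 to 3.85 in UB and 0.896 to 2.30 in NP, lower in both than in SP. Col27a1 was lower in NP, at 6.23, 2.45, 2.09 and 2.80, than in SP, at 41.9, 55.2, 21.7 and 17.3, or in UB, at 30.6, 33.9, 25.1 and 28.6, with a difference between UB and NP of 2.88 (SE 0.22, adjusted p = 2.84e-07).

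Basement membrane chains had the opposite centre. Col4a1 was 862, 820.1, 831 and 841 in E11.5 UB, 328, 356, 331 and 372 in NP and 334, 336, 328 and 200.4 in SP. Its partner Col4a2 was 376, 359.6, 373 and 359 in UB, 249, 261, 265 and 283 in NP and 209, 217, 229 and 153 in SP. Every UB library was above all 8 others for both genes, by 1.51 (SE 0.16, adjusted p = 1.75e-05) for Col4a1 and 0.87 (SE 0.12, adjusted p = 1.38e-04) for Col4a2 against SP. NP and SP overlapped for Col4a1, and the call of Col4a2 between them, 0.40 (SE 0.12, adjusted p = 0.0258), was lost without NP replicate 2, 3 or 4, with 0.37 (adjusted p = 0.0758) without the last. Col18a1 (chr10:77052178-77166548), a proteoglycan of epithelial basement membranes, was 704, 822, 701 and 716 in UB, 82.1, 95.8, 108 and 84.4 in NP and 229.9, 144, 123 and 66.01 in SP, with UB 7.94-fold above NP and 5.23-fold above SP on the means. Without SP replicate 4, Col18a1 was lower in NP than in SP, with a log2 difference of -0.79 (adjusted p = 0.00961), whereas at E12.5 it was higher in NP by 1.25 (SE 0.15, adjusted p = 1.83e-04). Col4a5 and Col4a6, which lie head to head on the X chromosome and pair in some epithelial membranes, were lowest in NP, at 15.04 to 29.1 and 3.51 to 6.18, against 45.5 to 51.9 and 12.6 to 14.1 in UB and 49.3 to 78.7 and 8.98 to 11.5 in SP. The call of Col4a5 between UB and SP (-0.40, SE 0.15, adjusted p = 0.0412) was lost without any 1 of 6 libraries, with -0.44 (adjusted p = 0.0597) without UB replicate 3 and -0.30 (adjusted p = 0.0708) without SP replicate 4. Col7a1 was 5.38 to 18.9 in SP, 4.83 to 7.87 in NP and 4.91 to 6.27 in UB, and its call between UB and SP was likewise lost without any 1 of 6 libraries.

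Among the other types, the filament and FACIT chains were mainly stromal. Col6a1, Col6a2 and Col6a3, the 3 chains of the type VI microfilament, were 36.8, 53.8, 81.6 and 101, 36.9, 53.5, 79.1 and 99.9 and 17.5, 28.8, 44.2 and 73.1 in E11.5 SP. No E11.5 NP or UB library reached 10 for any of them, and Col6a3 stayed at 0.351 to 1.78 in NP and 0.678 to 1.03 in UB. Col6a6, a further type VI chain, was 3.47 to 10.8 in SP and at most 0.469 in NP and UB. Col9a1 (chr1:24177610-24252684), a FACIT of cartilage fibrils, was 283, 341, 385 and 199 in SP, 53.3, 45.9, 52.2 and 34.6 in NP and 2.55, 4.22, 3.02 and 4.76 in UB, the 3 groups being apart from each other, with a log2 difference of -6.01 (SE 0.22, adjusted p = 1.06e-08) between UB and SP. The difference between NP and SP, -2.65 (SE 0.21, adjusted p = 9.43e-06), was 0.083 (SE 0.18, adjusted p = 0.753) at E12.5. Its partner Col9a2 was 18.2 to 39.1 in SP and 1.98 to 2.61 in NP, while Col9a3 was 5.17 to 10.7 in SP and 6.35 to 8.73 in UB with overlap, and 1.78 to 2.45 in NP. Col12a1, a FACIT of fibril surfaces, was 280.5, 430.0, 298 and 232 in SP, 47.9, 49.4, 40.2 and 53.7 in UB and 35.03, 18.1, 18.8 and 19.8 in NP. Col16a1 was 24.9 to 42.2 in SP and at most 1.95 in every NP and UB library, and Col22a1 was 15.5 to 27.3 in SP, 4.44 to 8.03 in NP and 2.19 to 5.30 in UB. Col14a1 (chr15:55307750-55520803), another FACIT, was low and overlapping in all 3, at 9.12 to 38.8, 11.3 to 20.5 and 5.67 to 11.3, and was called only between UB and NP (-0.92, SE 0.21, adjusted p = 0.00228). At E12.5 the sign of this difference turned, to 0.78 (SE 0.26, adjusted p = 0.0467) with all libraries and 0.52 (adjusted p = 0.0438) without E12.5 UB replicate 1.

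The transmembrane chains split by cell type. Col23a1 was 136, 131, 128 and 85.96 in E11.5 SP, 24.6, 16.9, 19.8 and 14.5 in NP and 1.16, 2.13, 1.36 and 0.604 in UB, and Col25a1, known from neurons and muscle, was 45.1, 73.9, 72.8 and 52.9 in SP and at most 2.78 in NP and UB. Col13a1, a chain of focal contacts and junctions, went the other way and was highest in NP, at 9.001, 11.01, 10.96 and 14.4, against 5.37, 6.32, 5.52 and 4.68 in SP and 0.614, 0.322, 0.340 and 0.356 in UB. It was the only non-basement-membrane member higher in NP than in SP (0.92, SE 0.15, adjusted p = 9.03e-04), and the other member called higher there was Col4a2. Col8a2, a short-chain collagen, was 9.74 to 17.2 in SP, 3.83 to 4.99 in NP and 0.249 to 0.844 in UB. Col26a1 (chr5:136741759-136883209), whose glycine run was the shortest of all members, was broadly present, with 318, 341, 455 and 462 in SP, 201, 252, 250.3 and 228 in NP and 160.3, 189.9, 116 and 173 in UB, the SP libraries being above all others.

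The main question of the design is how far each ES-derived cell type differs from its E11.5 counterpart. Between eUB and E11.5 UB, 31 members were tested and 18 called, 10 higher and 8 lower in eUB, where 60.5% of all genes tested were called, 32.1% higher and 28.5% lower. Of fibrillar chains 3 of 10 were higher and 2 lower, of basement membrane chains 3 of 7 lower and none higher, and of FACITs 4 of 7 higher and 2 lower. Col15a1, among the 3 lower basement membrane chains, had passed the filter through UB alone. The share of members called was close to that of all genes. Col14a1 differed most: it was 210.1, 191, 199 and 196 in eUB against 11.3, 5.67, 7.97 and 9.99 in UB, 22.8-fold on the means, with a log2 difference of 4.40 (SE 0.17, adjusted p = 4.45e-08). At 199 ± 8.21, eUB also exceeded every E11.5 and E12.5 library of any cell type for this gene. Col2a1 was 438, 507, 527 and 587 in eUB against 143, 158, 142 and 129, higher by 1.83 (SE 0.10, adjusted p = 4.35e-07). Its type IX partners rose with it in part, Col9a2 by 1.66 (SE 0.14, adjusted p = 5.89e-06) and Col9a3 by 1.26 (SE 0.13, adjusted p = 2.00e-05), whereas Col9a1 fell by 0.57 (SE 0.16, adjusted p = 0.0112). Chondrogenic markers summed to 114 to 125 in eUB and 135 to 178 in UB, being lower in every eUB library. Of the other marker sums, the stromal one was higher in every eUB library, at 211 to 234 against 136 to 155, as was the nephron progenitor one, at 59.5 to 71.5 against 49.2 to 55.1. Lower in every eUB library were the UB sum, at 3187 to 3524 against 4030.0 to 4270.5, the parietal endoderm sum, at 98.98 to 159 against 470.1 to 527, the smooth muscle sum, at 4.75 to 11.3 against 41.8 to 67.4, the macrophage sum, at 2.08 to 5.42 against 62.1 to 107, and the keratinocyte sum, at 1.59 to 2.005 against 2.27 to 20.98. The part of these cells in the collagen values was not tested.

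The type I chains moved in opposite directions in eUB. Col1a1 was 3.71, 4.08, 4.42 and 4.78 in eUB against 19.1, 23.1, 17.1 and 20.6 in UB, a fall of 1.99 (SE 0.12, adjusted p = 6.28e-07), and Col1a2 was 42.8, 35.2, 31.6 and 31.4 against 19.5, 23.2, 18.7 and 18.99, a rise of 0.77 (SE 0.12, adjusted p = 2.96e-04). Neither pair of groups overlapped. Col5a2 rose by 1.28 (SE 0.22, adjusted p = 6.43e-04), with 14.4, 14.5, 16.3 and 16.9 in eUB, while its partner Col5a1 differed by -0.060 (SE 0.18, adjusted p = 0.792) with overlap. Col3a1 was at most 5.52 in eUB, lower than in UB with a log2 difference of -0.96 (SE 0.28, adjusted p = 0.0131). Col12a1 was the other large fall, from 47.9, 49.4, 40.2 and 53.7 in UB to 5.79, 12.4, 12.4 and 11.5 in eUB, 4.54-fold on the means. Col6a1 rose from 8.33, 6.35, 8.50 and 9.17 to 23.98, 24.7, 22.97 and 21.5 (1.43, SE 0.11, adjusted p = 4.60e-06), but Col6a2 was 4.65, 6.99, 6.99 and 7.40 in UB and 5.05, 5.57, 4.51 and 5.13 in eUB and was not called (-0.29, SE 0.14, adjusted p = 0.0977). Without UB replicate 1, Col6a2 was lower in eUB, with -0.42 (adjusted p = 0.0116). In the basement membrane class Col4a1 fell from 862, 820.1, 831 and 841 to 321, 640.0, 596 and 579 (-0.70, SE 0.19, adjusted p = 0.00991), replicate 1 of eUB being the lowest, and Col4a6 by 0.43 (SE 0.094), whereas Col4a2, Col4a5 and Col18a1 overlapped between the groups, with log2 differences of -0.15, 0.13 and -0.16. Col26a1 fell by 0.63 (SE 0.15) and Col13a1 was 0.322 to 0.614 in UB and 1.59 to 1.76 in eUB, through which alone it passed the filter. Among the chains not called, Col11a2 (0.58) and Col27a1 (-0.19) depended on eUB replicate 1, without which they were higher in eUB by 1.28 (adjusted p = 1.23e-04) and 0.31 (adjusted p = 0.0284). Against E12.5 UB, 12 of 31 members were called, where 44.4% of all genes were, and 19 of 30 without E12.5 UB replicate 1, where 51.5% were. Col14a1 and Col2a1 stayed higher in eUB with all E12.5 libraries, by 2.81 and 2.16, and by 3.07 and 2.38 without that library. Col6a3 turned to -0.72 (SE 0.80, adjusted p = 0.497) with it, where E12.5 UB replicate 1 had 30.7 against 0.777 to 3.284 in the other 3, and had 0.20 (SE 0.31, adjusted p = 0.603) without it.

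**Figure D3:**
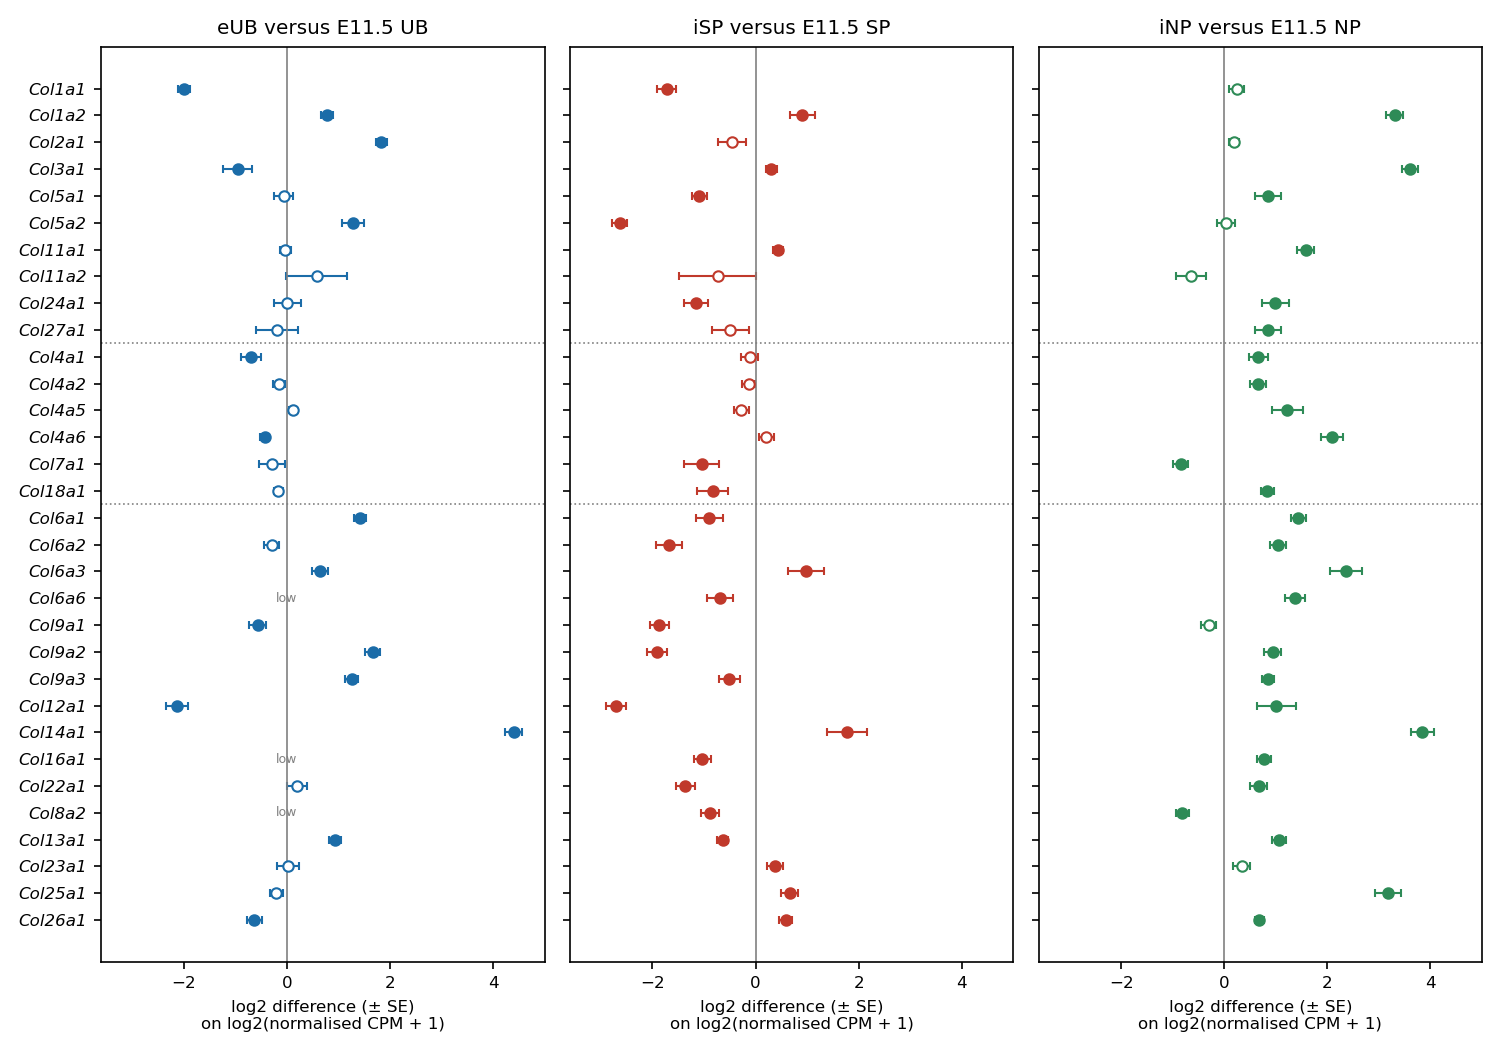
Log2 difference between ES-derived and E11.5 cells of the same type for the 32 named chains, with the SE as bars, in 3 panels for UB, SP and NP. Filled points were called, open points were not, and low marks genes under the filter. In NP filled points lie to the right apart from Col7a1 and Col8a2, led by Col14a1 at 3.84, while in SP most lie to the left, down to -2.70 for Col12a1.

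Between iSP and E11.5 SP, 28 of 36 members were called, 9 higher and 19 lower in iSP, where 67.6% of all genes were called, 35.5% higher and 32.1% lower. The median over the members was -0.67 against 0.037 over all genes. Fibrillar chains divided into 3 higher and 5 lower of 11, FACITs into 1 higher and 6 lower of 8, and beaded filament chains into 1 higher and 3 lower of 4, and of 7 basement membrane chains 1 was higher and 2 lower. Col5a3, among the 5 lower fibrillar chains, had passed the filter through SP alone. Col1a1 fell from 1577, 2308, 3060.0 and 2813 in E11.5 SP to 741, 722, 723 and 675 in iSP, 3.41-fold (-1.73, SE 0.19, adjusted p = 3.14e-05), while Col1a2 rose from 591, 930.1, 1365 and 1424 to 1905, 1849, 1984 and 1904 (0.91, SE 0.25, adjusted p = 0.00880), so the chains of type I again moved apart. Col3a1 was 2211, 2167, 2269 and 2172 in iSP, above all 4 SP libraries by a log2 difference of 0.31 (SE 0.10, adjusted p = 0.0224), a call that was lost without SP replicate 1, at 0.25 (adjusted p = 0.0576), or iSP replicate 3, at 0.29 (adjusted p = 0.0598). The type V chains were both lower. Col5a2 was 32.5, 35.7, 37.8 and 40.3 against 179, 217, 251 and 295 (6.44-fold lower), and Col5a1 313, 375, 374 and 316 against 620.0, 876, 856 and 612 (2.15-fold). Col12a1 was the largest fall among named chains, from 280.5, 430.0, 298 and 232 to 36.3, 51.005, 56.96 and 40.8 (-2.70, SE 0.20, adjusted p = 2.82e-06). Col9a1 fell to 71.6, 86.2, 82.003 and 79.3 and Col9a2 to 6.23, 6.45, 6.09 and 6.83, by 1.87 and 1.91 on the log2 scale. Type VI moved unevenly: Col6a1 and Col6a2 fell by 0.89 and 1.68, and Col6a3, with 64.3, 68.7, 75.4 and 80.5 in iSP, overlapped SP and was called higher (0.99, SE 0.35, adjusted p = 0.0308), though not without any 1 of 6 libraries. Higher in iSP were Col14a1 at 55.3, 62.3, 55.9 and 48.3 (1.77, SE 0.38, adjusted p = 0.00256), Col25a1 at 87.02, 93.3, 92.3 and 111 (0.66, SE 0.16, adjusted p = 0.00492), Col26a1 at 609.7, 586, 588 and 549 (0.58, SE 0.13, adjusted p = 0.00302) and Col11a1 at 126, 151, 145 and 149 (0.43, SE 0.10, adjusted p = 0.00331).

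Type IV (4 chains tested) showed no call between iSP and E11.5 SP: Col4a1 was 254, 297, 272 and 261 in iSP and Col4a2 184, 195, 186 and 166, and, Col4a5 and Col4a6 included, the chains had log2 differences between -0.28 and 0.21. Without SP replicate 4, the lowest for Col4a1, the chains lower in iSP were Col4a1 with -0.30 (adjusted p = 0.00553), Col4a2 with -0.25 (adjusted p = 0.0143) and Col2a1 with -0.77 (adjusted p = 7.35e-05). Without SP replicate 1, Col4a5 was lower with -0.40 (adjusted p = 0.0214), and without iSP replicate 1, Col4a6 was higher by 0.33 (adjusted p = 0.0448). The calls of Col18a1 (-0.83), Col6a6 (-0.70), Col9a3 (-0.51), Col7a1 (-1.04) and Col23a1 (0.38) were each lost without any 1 of several libraries, among them libraries of both groups. The groups overlapped for each of these chains. Against E12.5 SP, 30 of 37 members were called, where 62.1% of all genes were. Col2a1 was higher in iSP by 3.22 (SE 0.34, adjusted p = 3.37e-05) and Col9a1 by 1.25 (SE 0.16, adjusted p = 1.31e-04), while Col6a3 (-1.86, SE 0.29, adjusted p = 4.15e-04) and Col4a6 (-0.84, SE 0.21, adjusted p = 0.00653) were lower, each opposite to its sign against E11.5. Col18a1 and Col9a3 also turned, to 0.28 and 0.44, and were not called. Col1a1, Col5a2, Col6a1, Col6a2 and Col12a1 were lower in iSP than at either stage, and Col1a2, Col14a1 and Col25a1 higher than at either. The UB marker sum was 143 to 329 in E11.5 SP and 85.2 to 96.5 in iSP, the chondrogenic sum 41.9 to 68.9 and 61.5 to 66.6, and the smooth muscle sum 71.3 to 162 and 6.83 to 8.07. The nephron progenitor sum was higher in every iSP library, at 311 to 340.0 against 151 to 199, and the parietal endoderm and macrophage sums were lower in every one, at 244 to 287 against 531 to 613 and 2.27 to 3.58 against 4.34 to 8.85. The endothelial sum overlapped, at 44.5 to 71.6 and 16.1 to 49.3. Their part in these results was not tested.

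In nephron progenitors the direction was nearly uniform. Between iNP and E11.5 NP, 30 of 36 members were called, 28 higher and 2 lower in iNP, where 64.7% of all genes were called, 35.5% higher and 29.2% lower. The median over the members was 0.85 against 0.074 over all genes. Of fibrillar chains 7 of 11 were higher and none lower, of basement membrane chains 6 of 7 higher and 1 lower, and of FACITs 7 of 8 higher and none lower. The beaded filament chains Col6a1, Col6a2 and Col6a3 were higher, and Col6a6 was too but had passed the filter through iNP alone. On the log2 scale Col14a1 rose most, from 11.3, 18.5, 18.9 and 20.5 in NP to 300.2, 174, 287 and 284 in iNP, 15.1-fold (3.84, SE 0.22, adjusted p = 5.84e-07). Col3a1 rose from 24.7, 24.6, 22.3 and 20.8 to 397, 231, 301 and 264 (3.61, SE 0.16, adjusted p = 1.13e-07) and Col1a2 from 24.7, 21.3, 22.004 and 18.4 to 297, 169.9, 228 and 208 (3.30, SE 0.16, adjusted p = 2.62e-07). Col1a1 did not go with them: it was 97.2, 103, 86.2 and 78.02 in NP and 137, 93.5, 113 and 91.4 in iNP, overlapping, with a log2 difference of 0.24 (SE 0.15, adjusted p = 0.167). Col25a1 rose from 1.95, 0.772, 1.24 and 1.37 to 23.8, 11.2, 25.4 and 21.7 (15.4-fold) and Col6a3 from 0.351, 0.537, 0.810 and 1.78 to 12.1, 3.93, 9.26 and 10.1 (10.2-fold). Type IV rose as well, Col4a6 most, from 3.51, 6.18, 5.37 and 6.02 to 29.6, 16.3, 28.1 and 29.7 (2.09, SE 0.22, adjusted p = 2.66e-05), with Col4a5 up by 1.23, Col4a2 by 0.66, Col4a1 by 0.66 and Col18a1 by 0.84 on the log2 scale. Lower in iNP were Col7a1 (-0.84, SE 0.15, adjusted p = 7.06e-04) and Col8a2 (-0.81, SE 0.13, adjusted p = 3.28e-04).

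The iNP libraries were not alike. Replicate 2 was the lowest of the 4 for Col3a1, Col1a2, Col4a1, Col4a6 and Col14a1, and it overlapped the NP libraries for Col4a1 and Col4a5. With single libraries left out, the call of Col12a1 (1.01, SE 0.38, adjusted p = 0.0389) was lost without any 1 of 6 libraries, and Col6a6 and Col8a1, which reached 1 in the iNP libraries alone, were under the filter and untested without any 1 iNP library. Without iNP replicate 2, Col2a1 became higher by 0.26 (adjusted p = 0.00259) and Col23a1 by 0.41 (adjusted p = 0.0426). Without E11.5 NP replicate 1, 3 or 4 respectively, Col23a1 was higher by 0.47 (adjusted p = 0.0233), Col11a2 lower with -0.84 (adjusted p = 0.0309) and Col9a1 lower with -0.43 (adjusted p = 0.00891). Against E12.5 NP, 21 of 36 members were called, 19 higher and 2 lower in iNP, where 44.3% of all genes were called, with Col14a1 (3.96), Col3a1 (3.16), Col25a1 (3.14) and Col1a2 (2.82) again the largest of those named here, while Col4a1 (0.15) and Col18a1 (0.23) were not called. Marker sums differed between these groups too: endothelial 65.9 to 118 in iNP and 10.5 to 33.5 in E11.5 NP, chondrogenic 31.2 to 59.1 and 7.33 to 9.82, UB 114 to 146 and 51.6 to 74.2, nephron progenitor 576 to 956 and 1367 to 1516, macrophage 1.93 to 2.55 and 3.86 to 5.50. The stromal sum was 670.4 to 929 in iNP and 750.1 to 803 in NP, and of its genes Pdgfra was 44.9, 17.7, 33.9 and 30.04 in iNP and 3.04, 2.32, 2.77 and 1.98 in NP. The part of these cells in the collagen results was not tested.

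Whether the ES-derived minus E11.5 difference itself depended on cell type was tested in a fit of all 24 libraries, in which 37 members passed the filter. The difference was larger in NP than in SP for 28 members and smaller for none, where 31.5% of all genes were called in either direction. For 14 of the 28 the 2 comparisons were called with opposite signs, where 3.88% of all genes were. Of the 14, Col5a3, Col6a6 and Col8a1 had passed the filter of a comparison through 1 group alone. Examples are Col6a2 (difference of differences 2.73, SE 0.29, adjusted p = 1.42e-07), Col5a1 (1.94, SE 0.30, adjusted p = 2.69e-05), Col12a1 (3.71, SE 0.44, adjusted p = 5.08e-07) and Col18a1 (1.67, SE 0.30, adjusted p = 1.43e-04). Of the 14, the iNP call of Col12a1 and the iSP calls of Col18a1, Col9a3 and Col6a6 were each lost without any 1 of several libraries. Between UB and SP 21 members differed, where 45.1% of all genes did, 8 with opposite calls (6.49% of all genes), among them Col5a2 (3.91, SE 0.28, adjusted p = 1.12e-10) and Col6a1 (2.32, SE 0.28, adjusted p = 5.01e-07). Between UB and NP 26 differed, where 47.7% of all genes did, 6 with opposite calls (6.62% of all genes), led by Col3a1 (-4.56, SE 0.29, adjusted p = 1.92e-11), followed by Col12a1 (-3.14, SE 0.44, adjusted p = 3.21e-06). Col13a1 and Col15a1 among the 8, and Col15a1 among the 6, had passed the filter of eUB against UB through 1 group alone. The iSP calls of Col3a1 and Col9a3 and the iNP call of Col12a1 were each lost without some single libraries. For Col14a1, higher in all 3 ES-derived groups, the difference was larger in eUB than in iSP by 2.63 (SE 0.43, adjusted p = 2.62e-05), and eUB and iNP differed by 0.56 (SE 0.43, adjusted p = 0.295). For Col1a2, also higher in all 3, eUB and iSP differed by -0.14 (SE 0.28, adjusted p = 0.717), and the difference was larger in iNP than in eUB (-2.53, SE 0.28, adjusted p = 1.28e-07).

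The 2 chains of a heterotrimer can be set against each other per kilobase of transcript within a library, which removes the scaling between libraries. The ratio of Col1a1 to Col1a2 was 0.882, 0.896, 0.827 and 0.976 in E11.5 UB and 0.0783, 0.105, 0.126 and 0.137 in eUB. It was 2.41, 2.24, 2.02 and 1.78 in E11.5 SP, 1.56, 1.82, 1.97 and 2.02 in E12.5 SP and 0.351, 0.352, 0.329 and 0.320 in iSP. In E11.5 NP it was 3.54, 4.36, 3.53 and 3.83, in E12.5 NP 1.60, 2.69, 2.24 and 3.88 and in iNP 0.417, 0.496, 0.448 and 0.396. Each of the 12 ES-derived libraries was below each of the 24 ex-fetu libraries, the highest ES-derived value being 0.496 and the lowest ex-fetu value 0.670, in E12.5 UB replicate 1. No test was made on the ratios. The E14 line and the reporter line are separate mESC lines, and both were grown in culture while the ex-fetu cells came from CD1 embryos, so strain, culture and method of derivation cannot be told apart here. For Col4a1 over Col4a2 the ratio was highest in UB, 2.23, 2.22, 2.17 and 2.28 at E11.5 and 1.89, 2.57, 2.61 and 2.55 at E12.5, against 1.22, 1.62, 1.65 and 1.63 in eUB and 0.882 to 1.56 in the 24 SP and NP libraries. The type VI pair, Col6a1 over Col6a2, was 4.58, 4.28, 4.91 and 4.03 in eUB, above all other libraries, of which the highest was 1.86 in iSP. Col5a1 exceeded Col5a2 in every library, by 1.63 to 3.17 in E11.5 SP, 6.17 to 8.26 in iSP and 12.5 to 19.9 in iNP. Col4a5 over Col4a6 was 1.82 to 2.52 in iNP, below all other libraries.

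**Figure D4:**
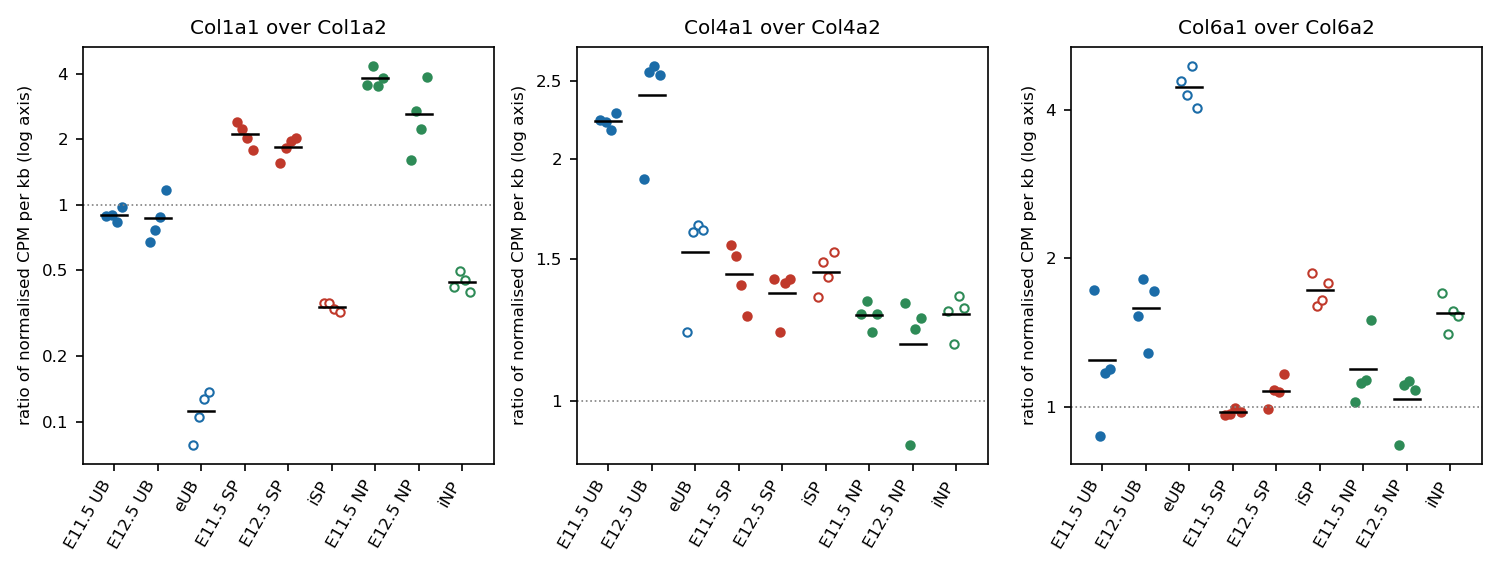
Ratio of per-kilobase levels of Col1a1 to Col1a2, Col4a1 to Col4a2 and Col6a1 to Col6a2 in each library, in 3 panels by group on a log axis. Filled points are ex-fetu and open points ES-derived libraries, and bars are group means. In the first panel all 12 open points, up to 0.496, lie below the filled ones, which start at 0.670.

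Between E12.5 and E11.5 more members were called in SP than in UB or NP with all libraries in the fits, although UB reached the count of SP without E12.5 UB replicate 1. In SP 15 of 39 members were called, 12 higher and 3 lower at E12.5, where 8.52% of all genes were called, 3.73% higher and 4.80% lower. Leaving out single libraries gave between 10 and 19 calls, the most without E12.5 SP replicate 1, where 21.5% of all genes were called, and the fewest without E12.5 SP replicate 3 or 4, where 3.30% and 2.91% were. All 5 beaded filament chains tested rose. Col6a3 (chr1:90765923-90843971) went from 17.5, 28.8, 44.2 and 73.1 to 132, 282, 318 and 407 (2.85, SE 0.44, adjusted p = 0.00668). Col6a1 (chr10:76708792-76726168) went from 36.8, 53.8, 81.6 and 101 to 191, 229.9, 256 and 301 (1.91, SE 0.29, adjusted p = 0.00620), and its neighbour Col6a2 (chr10:76595762-76623630) from 36.9, 53.5, 79.1 and 99.9 to 186, 204, 230.0 and 249 (1.76, SE 0.27, adjusted p = 0.00655). Col6a6 (chr9:105687809-105828160) had the largest rise, from 3.47, 6.88, 10.8 and 6.87 to 49.8, 73.3, 71.2 and 90.1, 10.1-fold (3.22, SE 0.29, adjusted p = 8.52e-04). In all of these every E12.5 library was above every E11.5 library. Col16a1 rose from 24.9, 38.03, 37.9 and 42.2 to 136, 71.3, 126 and 119.7 (1.62, SE 0.23, adjusted p = 0.00463) and Col8a2 from 9.74, 10.97, 17.2 and 14.6 to 33.3, 40.1, 50.4 and 48.3 (1.65, SE 0.20, adjusted p = 0.00255). Col2a1, Col9a1 and Col22a1 fell. Col2a1 went from 485, 582, 456 and 207 to 65.3, 30.2, 29.5 and 15.4, 12.3-fold (-3.67, SE 0.42, adjusted p = 0.00218), and Col9a1 from 283, 341, 385 and 199 to 39.2, 32.6, 39.4 and 23.1, 8.98-fold (-3.12, SE 0.23, adjusted p = 5.19e-04). Col22a1 fell as well, by 1.32 (SE 0.19, adjusted p = 0.00509). These calls, of the 4 type VI chains, Col16a1, Col8a2, Col2a1, Col9a1 and Col22a1, were kept whichever library was left out.

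Col5a2 (1.05, SE 0.22, adjusted p = 0.0188), Col4a5 (0.90, SE 0.22, adjusted p = 0.0346), Col4a6 (1.05, SE 0.21, adjusted p = 0.0150) and Col24a1 (0.73, SE 0.20, adjusted p = 0.0496) were also called higher, and each call was lost without some single library of either stage: Col5a2 reached 0.97 (adjusted p = 0.0743) without E12.5 SP replicate 4, and Col24a1 0.65 (adjusted p = 0.163). The fibril chains of type I and III were not called, Col1a1 at 2283, 3396, 3802 and 3572 at E12.5 (0.44, SE 0.24, adjusted p = 0.295), Col1a2 at 1319, 1681, 1740.3 and 1595 (0.63, SE 0.26, adjusted p = 0.172) and Col3a1 at 1611, 2122, 2204 and 2164 (0.18, SE 0.14, adjusted p = 0.507). E12.5 SP replicate 1, with a stromal marker sum of 2079 against 3450.5 to 3649 in the other 3, was the lowest for each of them. Without it, Col18a1 (-1.18, adjusted p = 0.0440), Col9a3 (-1.16, adjusted p = 0.0116) and Col13a1 (-0.60, adjusted p = 0.0291) became lower and Col4a2 (0.63, adjusted p = 0.0280) and Col12a1 (0.75, adjusted p = 0.0308) higher at E12.5. Without E11.5 SP replicate 4, Col14a1 became higher by 1.39 (adjusted p = 0.00834), and Col18a1 and Col23a1 lower with -1.43 (adjusted p = 0.00528) and -0.58 (adjusted p = 0.0382). The chondrogenic marker sum was 41.9 to 68.9 at E11.5 and 16.9 to 30.7 at E12.5, and the UB sum 143 to 329 and 91.7 to 125. Their part in the fall of Col2a1 and Col9a1 was not tested. Of the chondrogenic markers, Acan was 1.77 to 3.01 and 0.271 to 4.22, and Sox6 was 7.83 to 15.1 and 1.47 to 3.01. In iSP, Col2a1 at 283, 315, 307 and 278 was within the E11.5 range, Col6a1 at 34.9, 31.5, 34.98 and 34.1 was below it, and Col9a1 at 71.6, 86.2, 82.003 and 79.3 was between the stages.

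**Figure D5:**
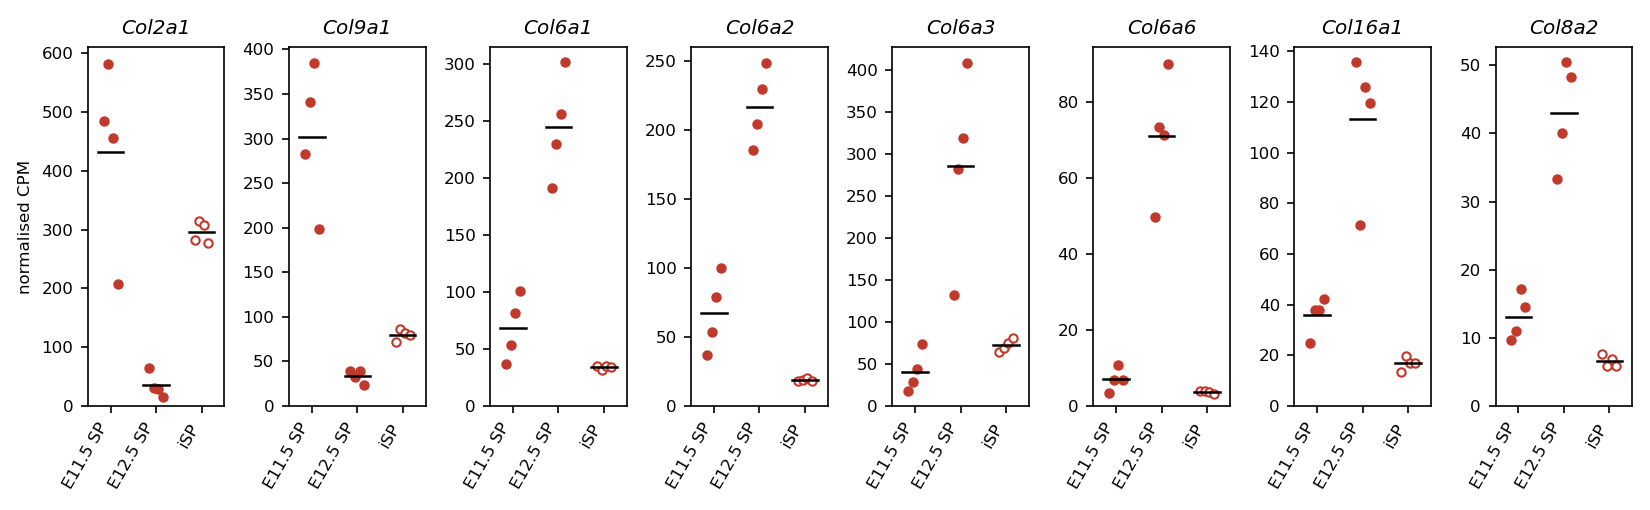
Normalised CPM of 8 collagen chains that were called between E12.5 and E11.5 SP, in E11.5 SP, E12.5 SP and iSP libraries, with bars at the group means and a panel per gene. Col2a1 and Col9a1 fall from E11.5 to E12.5 while the type VI chains, Col16a1 and Col8a2 rise, and the iSP libraries lie at 3.04 to 4.05 for Col6a6, far under the 49.8 to 90.1 of E12.5 SP.

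In UB 5 of 28 members were called between the stages, 4 higher and 1 lower at E12.5, where 26.5% of all genes were called, 14.2% higher and 12.3% lower. Col14a1 rose from 11.3, 5.67, 7.97 and 9.99 to 47.9, 26.5, 17.1 and 25.9 (1.59, SE 0.29, adjusted p = 0.00493). Col12a1 fell from 47.9, 49.4, 40.2 and 53.7 to 30.3, 12.97, 18.6 and 19.6 (-1.24, SE 0.21, adjusted p = 0.00344). Col4a1, Col4a2 and Col4a5 rose by 0.43, 0.33 and 0.29. Without E12.5 UB replicate 1 these 5 were called in the same directions, at 1.32 (adjusted p = 2.04e-04), -1.45 (adjusted p = 4.65e-06), 0.55 (adjusted p = 1.69e-05), 0.34 (adjusted p = 3.64e-04) and 0.29 (adjusted p = 0.00790). All of these signs follow the stage in the sample titles. The calls of Col4a1 and Col4a5 were lost without single libraries, Col4a1 at 0.38 (adjusted p = 0.0638) without E12.5 UB replicate 4 and Col4a5 at 0.27 (adjusted p = 0.0521) without E11.5 UB replicate 2. E12.5 UB replicate 1 decided much of this comparison. Its Col1a1 was 178 against 9.66 to 20.1 in the other 3, its Col1a2 239 against 10.4 to 15.6 and its Col3a1 382 against 5.76 to 10.7, and with it none of the 3 was called. Without it, 15 of 28 members were called, where 44.0% of all genes were, 6 higher and 9 lower at E12.5, among them Col1a1 with -0.62 (adjusted p = 0.0238), Col1a2 with -0.66 (adjusted p = 0.00139), Col7a1 with -1.12 (adjusted p = 8.27e-05), Col5a1 with -0.62 (adjusted p = 0.00350) and Col27a1 with 0.76 (adjusted p = 1.08e-04). The stromal, nephron progenitor and endothelial markers given above were highest in the same library. Over the whole groups the stromal sum was 185 to 523 at E12.5 against 136 to 155 at E11.5, the UB sum 2113 to 3598 against 4030.0 to 4270.5 and the chondrogenic sum 98.4 to 131 against 135 to 178, none of them overlapping. The part of these markers in the values was not tested.

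In NP 4 of 33 members were called, 3 higher and 1 lower at E12.5, where 6.34% of all genes were called, 2.74% higher and 3.59% lower. Col4a5 went from 15.04, 26.3, 25.8 and 29.1 to 33.6, 43.4, 47.1 and 51.4 (0.86, SE 0.21, adjusted p = 0.0428). Col18a1 went from 82.1, 95.8, 108 and 84.4 to 129.7, 115.4, 160.4 and 163 (0.61, SE 0.14, adjusted p = 0.0382) and Col13a1 from 9.001, 11.01, 10.96 and 14.4 to 18.3, 14.9, 26.4 and 20.8 (0.76, SE 0.19, adjusted p = 0.0455), and Col8a2 fell by 0.58 (SE 0.11). All 4 calls were lost without E11.5 NP replicate 1, 2 or 3 or E12.5 NP replicate 3 or 4, and 10 members were called without E12.5 NP replicate 2, where 9.38% of all genes were. Without E12.5 NP replicate 1, 6 members were called, where 17.0% of all genes were. E12.5 NP replicate 2 was the lowest of its group for Col4a1, at 582, 234, 658 and 667, and without it Col4a1 rose by 0.87 (adjusted p = 0.00505) and Col4a2 by 0.88 (adjusted p = 0.00522).

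Among the ES-derived groups themselves, which share samples in the 3 comparisons, most chains were lower in eUB. eUB came from the reporter line by its own differentiation, and iNP and iSP from the E14 line. Line, culture and cell type therefore cannot be told apart in the comparisons with eUB. Against iSP, 29 of 34 members were called in eUB, 7 higher and 22 lower, where 64.7% of all genes were called and 32.7% lower. Against iNP, 27 of 36 were called, 6 higher and 21 lower, where 52.2% of all genes were called and 26.3% lower. Between iNP and iSP, 27 of 36 were called, 10 higher and 17 lower in iNP, where 30.7% were called, 16.5% higher and 14.2% lower. Col3a1 had the largest difference between eUB and iSP, -8.94 (SE 0.21, adjusted p = 5.43e-10), and had -2.91 (SE 0.15, adjusted p = 1.07e-06) from iSP to iNP. Col18a1 was higher in eUB than in iSP by 3.18 (SE 0.080, adjusted p = 8.73e-10) and than in iNP by 1.98 (SE 0.11, adjusted p = 4.17e-07). Col14a1, by contrast, was high in both eUB and iNP, whose groups overlapped (-0.36, SE 0.17, adjusted p = 0.1002), and higher in iNP than in iSP by 2.19 (SE 0.17, adjusted p = 1.11e-05). Without iNP replicate 2, it was lower in eUB than in iNP, with -0.54 (adjusted p = 1.71e-04). Col13a1 was highest in iNP, at 24.5, 24.6, 24.4 and 24.3, as it had been in NP. Col1a1 kept the order of the ex-fetu cells, SP type over NP type over UB type, with -2.72 from iSP to iNP and -4.37 from iNP to eUB on the log2 scale.

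The genes that fold, process, assemble, break down and bind collagens were followed as a list of 76. The filter acted on them as on the members, and a gene that passed it through 1 group alone was bound to differ. In NP against SP at E11.5, 57 of 68 tested were called, 55 of them lower in NP, and in UB 59 of 68, 52 of them lower, with medians of -1.16 and -1.30. Of all genes, 43.1% were called in NP, 22.2% lower, and 53.6% in UB, 26.7% lower. Of 12 genes of crosslinking and assembly tested, 12 were lower in NP than in SP and 12 of 12 were lower in UB, beside these 22.2% and 26.7% of all genes. Against E11.5 cells, 41 of 54 were called in eUB, 24 higher and 17 lower, 51 of 69 in iSP, 19 higher and 32 lower, and 52 of 66 in iNP, 42 higher and 10 lower, with medians of 0.10, -0.32 and 0.72, where 60.5%, 67.6% and 64.7% of all genes were called. In iNP 16 of 20 genes of chain folding and modification were higher and 2 lower, where 35.5% of all genes were higher and 29.2% lower. Of the largest differences in eUB, P4ha2, a prolyl hydroxylase of collagen chains, was 61.3, 46.5, 45.8 and 61.2 against 14.8, 15.7, 12.7 and 12.02 in UB (1.88, SE 0.13, adjusted p = 1.95e-06). Nid2, a nidogen that bridges type IV collagen and laminin, was 67.6, 58.1, 52.9 and 59.1 against 13.9, 15.8, 14.5 and 15.8, and Smoc1, a secreted calcium-binding protein of basement membranes, 14.1, 13.2, 13.6 and 13.9 against 1.52, 1.25, 0.680 and 1.96. Lower in eUB were Creb3l1, a transcription factor of the secretory pathway (-2.19, SE 0.17, adjusted p = 3.59e-06), and Adgrg1, a receptor that binds type III collagen (-1.17, SE 0.11, adjusted p = 1.26e-05). Lox, which crosslinks collagens, was 0.497 to 0.965 in eUB against 2.24 to 3.22 in E11.5 UB, having passed the filter through UB alone.

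In iSP the matrix protease Fap was 73.3, 81.2, 78.6 and 86.8 against 5.84, 4.62, 7.07 and 8.40 in E11.5 SP (3.46, SE 0.15, adjusted p = 1.78e-07), and Smoc1 and the gelatinase Mmp9 were higher by 2.54 (SE 0.24, adjusted p = 1.19e-05) and 2.31 (SE 0.22, adjusted p = 1.50e-05). The fibril-binding proteoglycans Bgn, at 12.1, 15.2, 13.4 and 12.2 against 48.8, 70.6, 100.2 and 109.8, and Fmod were lower, as was the crosslinking enzyme Loxl4 (-2.11, SE 0.17, adjusted p = 5.46e-06). Fmod, at most 0.179 in iSP against 3.64 to 5.98 in E11.5 SP, had passed the filter through SP alone. In iNP Mmp9 was 53.6, 24.7, 39.4 and 35.9 against 2.45, 0.873, 1.32 and 1.06 in E11.5 NP (4.01, SE 0.25, adjusted p = 1.15e-06), Nid2 was 657, 294, 586 and 572 against 27.9, 47.8, 44.9 and 67.04 (3.46, SE 0.30, adjusted p = 7.47e-06) and Fap 13.1, 9.80, 8.70 and 8.72 against at most 0.0779. Lower in iNP were P4ha3 (-1.39, SE 0.14, adjusted p = 2.05e-05), Lox (-1.15, SE 0.25, adjusted p = 0.00233) and Ddr1, a receptor kinase for collagens (-1.07, SE 0.10, adjusted p = 1.16e-05). Lox fell in iNP and eUB, while Nid2 was higher in eUB, iNP and iSP (1.35 (SE 0.12, adjusted p = 7.35e-06) in the last), and Fap and Mmp9 were higher in iSP and iNP. Of these, Lox against eUB and Fap in iNP had passed the filter through the higher group alone, E11.5 UB and iNP. Between the stages, 13 of 71 genes of the list were called in SP, 12 higher and 1 lower at E12.5, 10 of 57 in UB, 5 in each direction, and 9 of 62 in NP, 4 higher and 5 lower, where 8.52%, 26.5% and 6.34% of all genes were called. Without E12.5 UB replicate 1 the UB count was 26 of 57, 13 in each direction, where 44.0% of all genes were called.

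The other 10 members had a mean under 10 in every group. Col5a3, a fibrillar chain, was 2.96 to 7.64 in E11.5 SP and 0.338 to 0.628 in iSP, having passed the filter through SP alone, and 2.39 to 2.78 in iNP. Col8a1, the partner of Col8a2, was 5.10 to 7.11 in E11.5 SP, 0.259 to 0.725 in iSP and 2.46 to 3.55 in iNP against 0.507 to 0.650 in NP, having passed through the higher group alone in both comparisons, and no read was counted in any eUB library, which allows at most 0.223 normalised CPM in the shallowest of them. Col15a1, of the basement membrane zone, was higher in iSP (1.46, SE 0.37, adjusted p = 0.00592) and iNP (1.22, SE 0.14, adjusted p = 4.73e-05), and was 0.297 to 0.816 in eUB against 1.32 to 2.76 in UB, through which alone it passed the filter. Col4a3 and Col4a4, the partners of Col4a5 in the mature glomerular membrane, stayed at or under 0.551 and 4.18. Col4a4 was 1.30, 2.08, 1.77 and 4.18 in E12.5 SP against 0.267, 0.170, 0.159 and 0.390 at E11.5, having passed the filter through E12.5 alone. Col6a4 was 4.06, 6.11, 5.12 and 5.74 in E12.5 SP against 0.801, 0.802, 1.07 and 1.61 (1.60, SE 0.18, adjusted p = 0.00200). Col20a1 reached 6.36 in eUB, where it was called higher than in UB (1.33, SE 0.42, adjusted p = 0.0195), though not without E11.5 UB replicate 1 (1.28, adjusted p = 0.0502) or 4, and it was under the filter without any 1 of 4 other libraries. Col6a5, Col17a1 and Col28a1 did not exceed 2.29, 1.49 and 0.182 in any library, and Col4a3, Col6a5 and Col28a1 passed the filter in none of the 12 comparisons.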

How the data were processed

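RNA was sequenced from 36 samples in 9 groups of 4. Per the study's methods, Cutadapt served for trimming, STAR for alignment and edgeR for normalisation. The genome is written there as GRCh38, although the gene identifiers are of mouse, and 99.5% of them are in GENCODE vM21 (GRCm38), used here for positions and lengths. The counter, the annotation release and the use of strand are not given in the sources used here, and the kit is named as TruSeq stranded mRNA in the labels and Illumina Stranded mRNA Prep in the methods. The deposited signal is CPM (reads scaled to library size) adjusted by the authors' edgeR normalisation factors, and whole reads were recovered for 100% of values within 0.01 read. The authors' table also holds means, fold changes and p-values of their comparisons, none of which was used. Comparisons were tested with limma 3.58.1 (trend; R 4.3.3) on log2(value + 1), with genes at 1 or more in at least 4 of 8 libraries and Benjamini-Hochberg adjustment over all genes tested at 0.05, two-sided. edgeR 4.0.16 on the recovered reads, a pseudocount of 0.1, no filter, upper-quartile scaling, a fit of all 36 samples, a replicate block, each library left out and E12.5 samples were alternatives. The fits were tested on simulated data. Python 3.11.15, pandas 2.3.3, numpy 2.4.6, scipy 1.17.1 and matplotlib 3.10.9 were used. Chains with a group mean of at least 10 were described singly, and genes of the pathway list where called with a log2 difference over 1 between ES-derived and E11.5 cells, up to 3 in each direction. Members and lists were chosen with earlier results of these data known. Intervals and the limit of 3 reads cover counting error only. A further table of the same libraries was not used here.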

Additional observations from a re-analysis of the deposited data

Results flagged for a closer look

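A library is singled out here where its gap to the nearest of the other 3 over the range of its group exceeded Dixon's 95% critical value for 4 samples, which chance gives in about 1 of 20 groups.
Over the 32 named chains in 9 groups, 38 of 288 values met this, and 50 of 369 with the class shares and chain ratios. E12.5 UB replicate 1 gave 15 of them, all above its group in normalised CPM. These were Col1a1 at 178 against 9.66 to 20.1, Col1a2 at 239 against 10.4 to 15.6, Col3a1 at 382 against 5.76 to 10.7, Col5a1 at 139 against 27.1 to 31.6 and Col11a1 at 54.9 against 32.4 to 34.9. Others in it were Col11a2 at 6.35 against 2.51 to 2.89, Col7a1 at 9.54 against 1.55 to 2.32, Col6a1 at 19.6 against 6.34 to 7.08, Col6a3 at 30.7 against 0.777 to 3.284 and Col6a6 at 3.44 against 0.805 to 1.16. The rest were Col9a2 at 5.44 against 2.37 to 2.88, Col8a2 at 2.01 against 0.386 to 0.594, Col13a1 at 7.74 against 0.320 to 0.724, Col23a1 at 27.1 against 0.503 to 1.11 and Col25a1 at 9.05 against 0.960 to 1.26.

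E12.5 NP replicate 1 stood apart for Col1a2 at 54.3 against 24.7 to 25.2, Col3a1 at 78.6 against 21.3 to 26.4, Col6a1 at 8.06 against 5.91 to 6.28 and Col6a2 at 9.26 against 5.15 to 5.58. E12.5 SP replicate 1 stood apart for Col3a1 at 1611 against 2122 to 2204, Col11a1 at 69.7 against 106 to 110.0 and Col25a1 at 24.1 against 39.5 to 42.3. E11.5 SP replicate 4 stood apart for Col4a1 at 200.4 against 328 to 336 and Col23a1 at 85.96 against 128 to 136. iNP replicate 2 stood apart for Col4a5 at 29.1 against 68.4 to 70.4, Col4a6 at 16.3 against 28.1 to 29.7, Col6a6 at 1.25 against 2.78 to 3.03 and Col14a1 at 174 against 284 to 300.2. E11.5 UB replicate 2 stood apart for Col4a6 at 14.1 against 12.587 to 12.627 and Col18a1 at 822 against 701 to 716. iNP replicate 1 stood apart for Col7a1 at 3.34 against 2.62 to 2.67. eUB replicate 2 stood apart for Col18a1 at 721 against 630.0 to 643. E11.5 UB replicate 1 stood apart for Col6a2 at 4.65 against 6.99 to 7.40 and Col13a1 at 0.614 against 0.322 to 0.356. E12.5 NP replicate 3 stood apart for Col9a1 at 37.99 against 33.4 to 34.2. eUB replicate 1 stood apart for Col12a1 at 5.79 against 11.5 to 12.4. E11.5 NP replicate 1 stood apart for Col12a1 at 35.03 against 18.1 to 19.8. E11.5 UB replicate 4 stood apart for Col22a1 at 5.30 against 2.19 to 2.68.

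Of the percent of reads on genes, all collagen chains stood apart in E11.5 UB replicate 2 at 0.273 against 0.250 to 0.253, eUB replicate 1 at 0.234 against 0.286 to 0.292 and E12.5 NP replicate 2 at 0.141 against 0.249 to 0.269. Of the percent of reads on genes, fibrillar chains stood apart in E12.5 UB replicate 1 at 0.130 against 0.0228 to 0.0284. Of the percent of reads on genes, basement membrane chains stood apart in iNP replicate 2 at 0.0887 against 0.142 to 0.150. Of the percent of reads on genes, the other collagen types stood apart in E12.5 UB replicate 1 at 0.0470 against 0.0184 to 0.0232. Of the per-kb ratio, Col4a1 over Col4a2 stood apart in E12.5 UB replicate 1 at 1.89 against 2.55 to 2.61, eUB replicate 1 at 1.22 against 1.62 to 1.65 and E12.5 SP replicate 2 at 1.22 against 1.40 to 1.42. Of the per-kb ratio, Col6a1 over Col6a2 stood apart in E12.5 NP replicate 1 at 0.838 against 1.08 to 1.13. Of the per-kb ratio, Col4a5 over Col4a6 stood apart in E12.5 UB replicate 1 at 4.01 against 5.05 to 5.15 and E12.5 NP replicate 2 at 6.49 against 3.92 to 4.11.

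The ES-derived minus E11.5 difference differed between cell types, by a test of the difference itself, for 21 chains between UB and SP, 26 chains between UB and NP and 28 chains between NP and SP. Chains called in opposite directions in UB and SP had a difference of differences (UB minus SP, log2) of -1.26 for Col3a1, 3.91 for Col5a2, -2.27 for Col15a1, 2.32 for Col6a1, 3.57 for Col9a2, 1.76 for Col9a3, 1.58 for Col13a1 and -1.21 for Col26a1. Chains called in opposite directions in UB and NP had a difference of differences (UB minus NP, log2) of -4.56 for Col3a1, -1.36 for Col4a1, -2.52 for Col4a6, -2.03 for Col15a1, -3.14 for Col12a1 and -1.31 for Col26a1. Chains called in opposite directions in NP and SP had a difference of differences (NP minus SP, log2) of 1.94 for Col5a1, 2.96 for Col5a3, 2.14 for Col24a1, 1.67 for Col18a1, 2.33 for Col6a1, 2.73 for Col6a2, 2.07 for Col6a6, 2.85 for Col9a2, 1.36 for Col9a3, 3.71 for Col12a1, 1.80 for Col16a1, 2.03 for Col22a1, 3.66 for Col8a1 and 1.70 for Col13a1. Of the chains in these lists, Col13a1 and Col15a1 had passed the filter of eUB against UB through a single group and were bound to differ there. The same held for Col5a3 and Col8a1 in iSP against SP and for Col6a6 and Col8a1 in iNP against NP.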

How the results depend on the processing

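Leaving out each library in turn, the number of chains called ranged from 16 to 19 for eUB against E11.5 UB, 22 to 27 for iSP against E11.5 SP, 27 to 31 for iNP against E11.5 NP, 3 to 15 for E12.5 UB against E11.5 UB, 10 to 19 for E12.5 SP against E11.5 SP, 0 to 10 for E12.5 NP against E11.5 NP, 26 to 29 for E11.5 NP against E11.5 SP, 22 to 27 for E11.5 UB against E11.5 SP and 20 to 25 for E11.5 UB against E11.5 NP, and from 24 to 28 for iNP against iSP, 24 to 32 for eUB against iSP and 21 to 30 for eUB against iNP. Of 265 calls in these comparisons, 30 were of chains that no longer met the filter, and so were not tested, without some single library, which lowered these counts. The tests of differences between cell types gave 20 to 24, 24 to 27 and 26 to 30 (UB against SP, UB against NP, NP against SP). E12.5 against E11.5 NP lost every call without any 1 of 5 libraries and gained most without E12.5 NP replicate 2, and E12.5 against E11.5 UB gained most without E12.5 UB replicate 1. Without the filter on low values 2 chains were called between E12.5 and E11.5 NP, and with E12.5 in place of E11.5 samples 15 between UB and NP. Pseudocount, scaling, a fit over all 36 libraries and edgeR on the recovered reads moved no other count by more than 1.5 times. Upper-quartile scaling moved the median of all genes by 0.134 for iSP against E11.5 SP, by 0.173 for iNP against E11.5 NP, by -0.113 for eUB against iNP and by -0.111 for the difference between UB and NP. Of single-chain values in the 12 comparisons, 404 of 413 kept their direction and side of the threshold with edgeR, 412 of 413 with a pseudocount of 0.1, 367 of 413 in the fit over all libraries and 147 of 203 with E12.5 samples. With E12.5 in place of E11.5 samples these log2 differences changed sign: Col6a3 -0.72 (eUB against UB), Col2a1 3.22, Col4a6 -0.84, Col18a1 0.28, Col6a3 -1.86, Col9a1 1.25 and Col9a3 0.44 (iSP against SP), Col16a1 -0.17 (iNP against NP), Col2a1 3.59, Col18a1 1.25, Col9a1 0.083 and Col14a1 -0.97 (NP against SP), Col2a1 1.85, Col4a6 -0.82 and Col9a3 1.10 (UB against SP) and Col14a1 0.78 (UB against NP). With E12.5 UB replicate 1 left out as well, an alternative chosen after seeing the data, they were Col5a1 0.56, Col7a1 0.84 and Col25a1 0.48 (eUB against UB), Col2a1 1.63, Col4a6 -0.90 and Col9a3 1.33 (UB against SP) and Col12a1 -0.12, Col14a1 0.52 and Col25a1 -0.19 (UB against NP). Leaving out 1 library turned the sign of Col27a1 in eUB against E11.5 UB (without eUB replicate 1, over all libraries -0.40 to 0.31), Col1a1 in E12.5 UB against E11.5 UB (without E12.5 UB replicate 1, over all libraries -0.62 to 0.74), Col1a2 in E12.5 UB against E11.5 UB (without E12.5 UB replicate 1, over all libraries -0.66 to 0.80) and Col12a1 in iNP against iSP (without iNP replicate 2, over all libraries -0.17 to 0.42). The difference between UB and NP for Col13a1 turned to 0.73 with a pseudocount of 0.1 and 0.92 with edgeR. Why these turned was not tested. Libraries of the same replicate number had correlations of their deviations from group means between -0.575 and 0.690, and no comparison had all 4 above 0.1, so the numbers were not taken to pair samples, and with a replicate block the calls were 18 for eUB against E11.5 UB, 28 for iSP against E11.5 SP, 32 for iNP against E11.5 NP, 4 for E12.5 UB against E11.5 UB, 16 for E12.5 SP against E11.5 SP, 3 for E12.5 NP against E11.5 NP, 29 for E11.5 NP against E11.5 SP, 29 for E11.5 UB against E11.5 SP, 24 for E11.5 UB against E11.5 NP, 26 for iNP against iSP, 30 for eUB against iSP and 26 for eUB against iNP. eUB replicate 1 was the shallowest library, and at these depths a chain at 0 reads is known only to lie under the limit of 3 reads.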
